A study of Rattus norvegicus with 12 samples.

Results

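The genes described here are the organic ion transporters of the Slco, Slc22a and Slc47a families and the ATP-binding cassette transporters of the Abca to Abcg families, without Abcb11. They were taken by symbol from the array's platform annotation, among probe sets with exactly 1 gene symbol, and a gene with several probe sets was to be represented by the brightest. The rule gave 65 genes with 1 probe set each, among 13327 probe sets with 1 symbol and 19418 in all. Of the 65 genes, 14 were Slco, 13 were Slc22a or Slc47a, 11 were Abca, 8 were Abcb, 7 were Abcc, 3 were Abcd, 3 were Abce or Abcf and 6 were Abcg. All 65 were matched to a RefSeq gene by Entrez identifier.

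The liver was taken from Sprague Dawley rats after 7 days on their diets, and total RNA of each sample was hybridised to 1 Affymetrix whole-transcript array. A naproxen diet at 400 mg/kg was given to 4 rats, a NO-naproxen diet at 550 mg/kg to 4 rats and a control diet to 4 rats. Naproxen is a nonsteroidal anti-inflammatory drug that inhibits cyclooxygenases, and NO-naproxen is its nitric oxide releasing derivative. The drug doses differ between the diets, so a difference between the drug groups is a difference between the diets as given. The samples are called biological replicates in the labels, and the p-values measure the spread between them.

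Hepatocytes take up bile salts, drugs and hormones from blood through Slco and Slc22a carriers on the sinusoidal membrane. They release conjugates, phospholipids and sterols through ATP-driven pumps, either into bile across the canalicular membrane or back into blood. Several of these genes are textbook targets of nuclear receptors that sense drugs, bile acids and oxysterols.

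Probe set intensities had medians between 89.8 and 118.1 per array. The interquartile range of the log2 values, called the array spread here, was 1.94 to 2.37 in the control arrays, 2.20 to 2.53 in the naproxen arrays and 2.07 to 2.62 in the NO-naproxen arrays. Control replicates 3 and 4 had the narrowest spread of the 12 arrays, 2.0 and 1.94. All 5 measured hepatocyte markers were well above background, with a mean log2 level of 13.1 to 13.3 in the control rats, 13.0 to 13.2 in the naproxen rats and 13.1 to 13.4 in the NO-naproxen rats. Of the 6 measured Kupffer cell and macrophage markers, all were above background, and their mean log2 level was 8.87 to 9.37 in control, 9.01 to 9.54 in naproxen and 9.13 to 9.77 in NO-naproxen livers. Of the 5 measured stellate cell markers, all above background, all had a log2 fold change above 0 with naproxen and 4 with NO-naproxen. Among all probe sets above background, 56.7% were above 0 with naproxen and 61.3% with NO-naproxen. The mean log2 level of the stellate cell markers was 7.90 to 8.45 in control, 8.24 to 8.59 in naproxen and 8.14 to 8.65 in NO-naproxen livers. Rgs5, a pericyte and stellate cell marker, was 1.63-fold higher with naproxen and past the criterion (limma, adjusted p = 0.381). Its naproxen and control groups did not overlap. Of all probe sets, 0.875% were past the criterion higher with naproxen, and 2.09% were higher with groups that did not overlap. With naproxen 1 of 3 measured cholangiocyte markers also lay above control without overlap, and the other 2 had a log2 fold change below 0. Only 1 of these 3 markers was above background. Below control without overlap lay 1 of 4 kidney tubule markers, beside 2.40% of all probe sets in that direction. The 2 measured endothelial markers had a mean of 7.33 to 8.17 in control, 7.82 to 8.18 in naproxen and 7.42 to 8.24 in NO-naproxen livers. The part of these cell types in the transporter values was not tested. In whole liver, fewer cells of a type and less RNA per cell cannot be told apart.

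Most transporter genes differed between the diets by less than the criterion of the series, an unadjusted p under 0.05 with a change of at least 1.5-fold. Against control, 4 of the 65 genes were past it in the naproxen livers, beside 5.85% of all probe sets. Those higher with naproxen were Abcg5, which exports sterols, and Abcd2, a peroxisomal importer of very long chain fatty acids, where 0.875% of all probe sets were past the criterion in that direction. Those lower were Abcc8, the regulatory subunit of an ATP-sensitive potassium channel, and Abca15, beside 4.97% of all probe sets. In NO-naproxen livers 0 of the 65 genes were past the criterion against control, beside 3.80% of all probe sets. The direct contrast of the drug diets also called 0 of 65, beside 0.572%.

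The shares of transporter genes past the criterion were thus near those of all probe sets in all 3 contrasts. With limma and Benjamini-Hochberg adjustment over all probe sets, 0 of the 65 genes had an adjusted p under 0.05 in any contrast, and the smallest was 0.381 for naproxen, 0.468 for NO-naproxen and 1 for the direct contrast. At an unadjusted p under 0.05 alone, limma counted 9 of the 65 for naproxen, 2 higher and 7 lower, beside 12.7% of all probe sets. For NO-naproxen it counted 6, 2 higher and 4 lower, beside 10.4%, and for the direct contrast 0, beside 1.92%. The median log2 fold change of the 65 genes was -0.01 with naproxen and 0.06 with NO-naproxen, and over all probe sets it was -0.03 and 0.00. The comparisons with control share the 4 control rats.

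The number of genes past the naproxen criterion rested on single rats. Without control replicate 2 it was 15 of 65 (3 higher and 12 lower) with 15.3% of all probe sets past it, and without control replicate 3 it was 1. The share of all probe sets was then 3.09%. It was 2 without control replicate 4, naproxen replicate 1 or naproxen replicate 3, beside 2.96%, 4.04% and 3.52% of all probe sets. Without naproxen replicate 2 it was 7, beside 7.24%, and without naproxen replicate 4 it was 10, beside 10.9%. For NO-naproxen it was 7 without control replicate 2, beside 13.2%, 4 without NO-naproxen replicate 3, beside 12.7%, and 1 without control replicate 1, beside 4.56%. For the direct contrast it was 2 without NO-naproxen replicate 3 or naproxen replicate 2, beside 1.52% and 0.932%, and 1 without NO-naproxen replicate 2 or naproxen replicate 4, beside 0.736% and 1.70%. The share of all probe sets past the criterion thus moved with the rat left out as well. Median centring of the arrays moved the median over all probe sets with naproxen from -0.03 to 0.08 and the split of probe sets past the criterion from 170 higher and 965 lower to 463 higher and 483 lower. Among the 65 genes that left 2 higher and 0 lower.

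**Figure D1:**
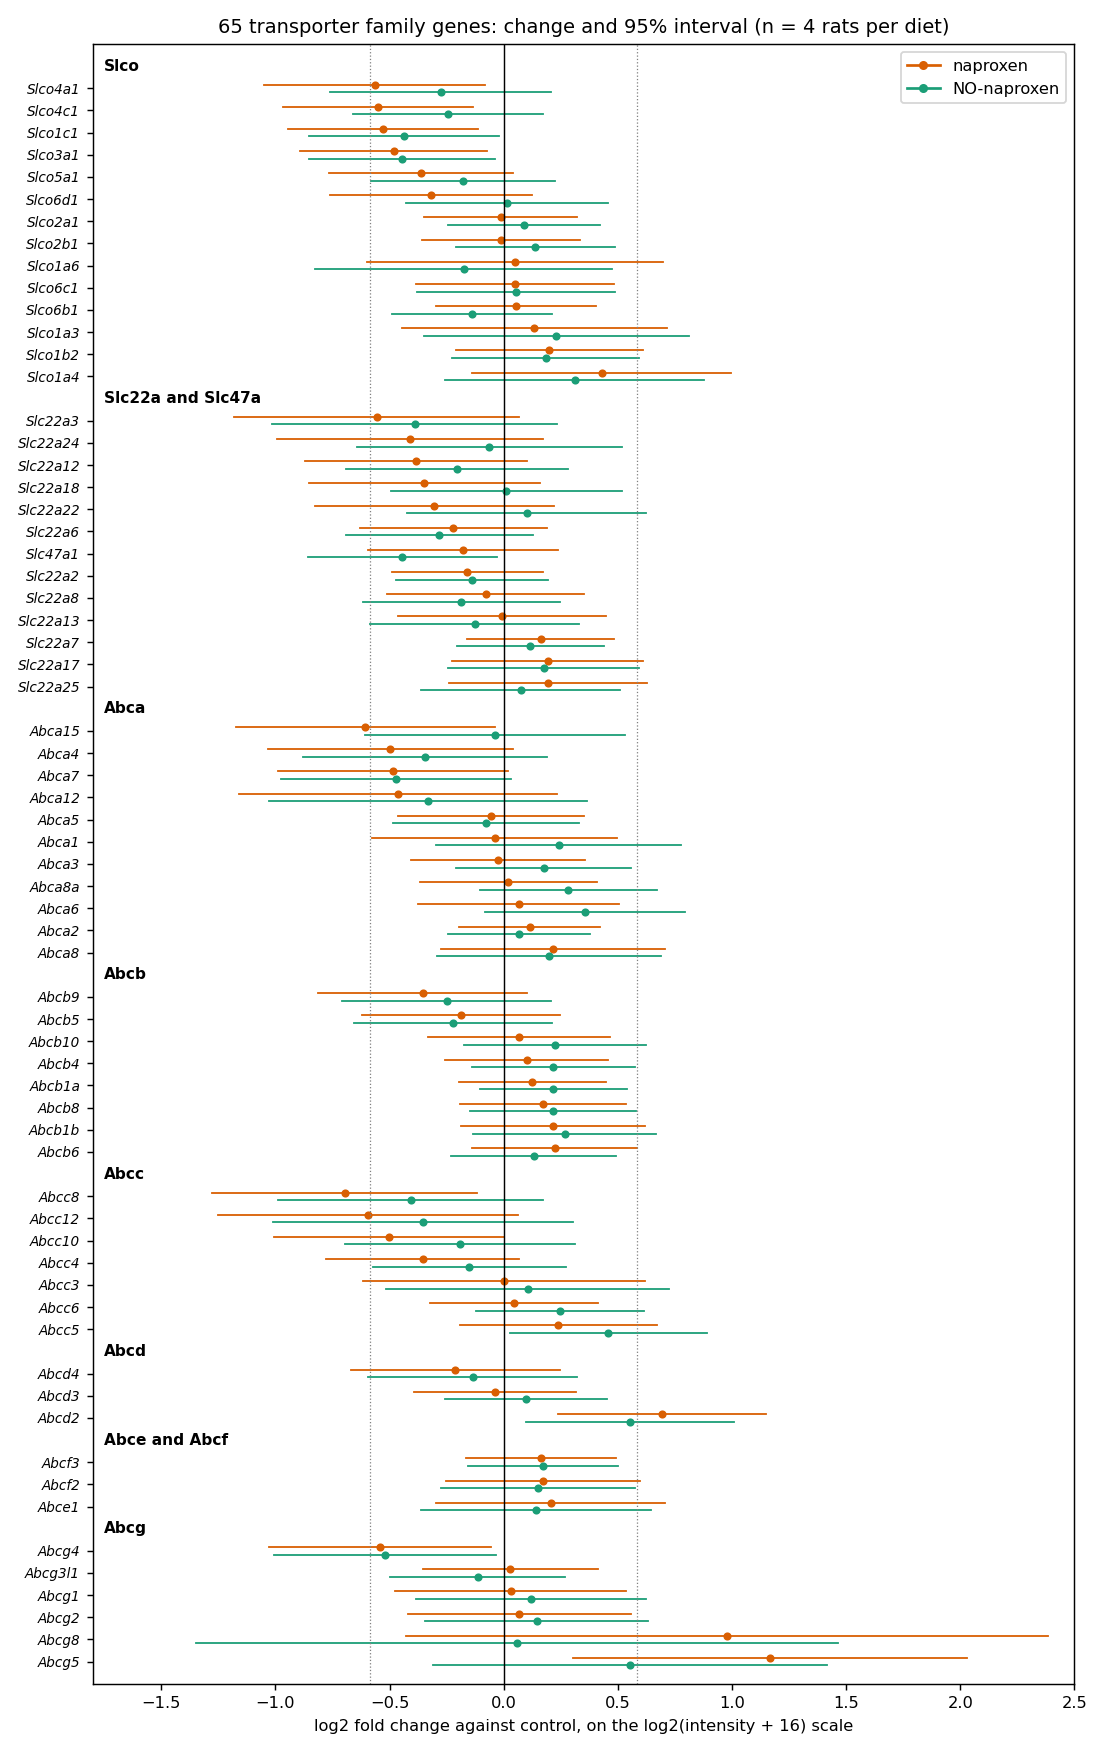
Log2 fold change against control of the 65 transporter genes, on the log2(intensity + 16) scale, by family, with naproxen in orange and NO-naproxen in green; bars are 95% intervals from limma with 4 rats per diet, and dotted lines mark 1.5-fold. Most intervals include 0, and the highest point is Abcg5 with naproxen at 1.17.

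The precision of the measurement was enough to limit the measured change of most genes. The 95% interval of the log2 fold change lay within a 2-fold change in either direction for 53 of the 65 genes with naproxen and for 58 with NO-naproxen. Both counts include genes within the background range, such as Slco6b1 and Abcb5. The constant added before log2 understates folds there, so a narrow interval does not limit the change of their transcripts. Of the 24 liver transporters of drugs, bile salts, prostaglandins and sterols that were listed by name, 18 had a probe set of their own, and the rest are not analysed here. For 16 of those 18 the interval lay within a 2-fold change in both comparisons, and the exceptions were Abcg5 and Abcg8. Over the 16 genes the intervals reached from -0.78 for Abcc4 to 1.00 for Slco1a4 with naproxen and from -0.86 for Slc47a1 to 0.88 for Slco1a4 with NO-naproxen.

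Among the organic anion carriers of the Slco family, the main liver uptake genes showed no difference past the criterion. Slco1b2, the rat hepatocyte carrier of bile salts and many drugs, had intensities of 6883, 7976, 5225 and 6029 in the control rats. They were 10092, 5935, 6901 and 7294 with naproxen and 7604, 8343, 6328 and 7179 with NO-naproxen. The groups overlapped, and the log2 fold change was 0.20 with naproxen (limma, adjusted p = 0.638) and 0.18 with NO-naproxen (adjusted p = 0.644). With the array spread in the model both turned below 0, to -0.05 and -0.09.

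Slco2a1, the prostaglandin transporter, had mean log2 levels of 12.39 ± 0.15 (SD, n = 4) in control, 12.38 ± 0.17 in naproxen and 12.48 ± 0.14 in NO-naproxen livers. Its 95% interval was -0.35 to 0.32 with naproxen and -0.25 to 0.42 with NO-naproxen, so a 1.5-fold change lay outside both. Slco2b1, a broad uptake carrier, was at 11.11 ± 0.17 in control, 11.10 ± 0.19 in naproxen and 11.25 ± 0.17 in NO-naproxen livers. The intervals of Slco2b1 were -0.36 to 0.34 and -0.21 to 0.49.

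Slco1a4, a sinusoidal carrier of bile salts, steroid conjugates and cardiac glycosides, varied more between rats. Its intensities were 2035, 3021, 1386 and 2071 in the control rats, 3675, 2092, 2984 and 2551 with naproxen and 1844, 3590, 3231 and 1963 with NO-naproxen. Control replicate 2 was above 3 of the 4 naproxen rats, control replicate 3 was the lowest of all 12 rats, and the groups overlapped. The log2 fold change was 0.43 ± 0.27 (SE) with naproxen (limma, adjusted p = 0.475) and 0.31 ± 0.27 with NO-naproxen (limma, adjusted p = 0.58). With the array spread modelled these were 0.17 and 0.03, after removal of control replicates 3 and 4 they were 0.16 and 0.04, and under quantile normalization the latter was 0.17. Leaving out control replicate 3 gave 0.24 and 0.12, and for NO-naproxen the values were 0.50 without control replicate 2, 0.15 without NO-naproxen replicate 2 and 0.20 without NO-naproxen replicate 3. Signal shared between the probes of Slco1a4 and those of related Slco1a genes was not tested.

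Slco genes outside the main hepatocyte uptake group accounted for the 4 of 14 family members with an unadjusted p under 0.05 for naproxen, all lower, where 2458 of the 19418 probe sets had such a p and 1845 of them were lower. They were Slco1c1, a thyroid hormone carrier, with a log2 fold change of -0.53, Slco3a1 with -0.48, Slco4a1 with -0.57 and Slco4c1 with -0.55. Their mean log2 levels were 7.17, 7.09, 7.60 and 6.45, where 6.44 was the upper bound of background. The naproxen mean of Slco4c1, 6.16, was below that bound. None of the 4 reached 1.5-fold, and each had an adjusted p of 0.381 in limma. Slco3a1 no longer had an unadjusted p under 0.05 under median centring, and none of the 4 had one with the array spread as a covariate or after removal of control replicates 3 and 4. The corresponding values for NO-naproxen were -0.44, -0.45, -0.28 and -0.24, and Slco1c1 and Slco3a1 had an unadjusted p under 0.05 there as well (limma, adjusted p = 0.468 for both).

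For Slco1c1 the intensities were 156, 148, 171 and 183 in the control rats, 115, 112, 77.6 and 137 with naproxen and 139, 95.9, 152 and 91.0 with NO-naproxen. Every naproxen rat was below every control rat, while a NO-naproxen rat, replicate 3, was above a control rat. Slco3a1 was the other gene whose naproxen rats were all below the controls, with 73.6, 145.0, 103 and 110 against 153, 145.1, 159 and 156, although the highest naproxen and the lowest control value nearly met. These were the 2 of 65 genes whose naproxen and control groups did not overlap, beside 4.50% of all probe sets and 2.40% in the lower direction. With NO-naproxen 0 of 65 were separate from control, beside 3.35%, and in the direct contrast 0, beside 1.17%. The median of the 14 Slco genes was -0.01 with naproxen and -0.06 with NO-naproxen, and both turned positive under median centring, 0.10 and 0.01.

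None of the 13 Slc22a and Slc47a genes was past the criterion with either drug diet. Slc22a7, a hepatocyte carrier of organic anions and nucleotides, had intensities of 623, 647, 757 and 578 in control, 656, 823, 674 and 768 in naproxen and 685, 695, 693 and 744 in NO-naproxen livers. The groups overlapped, with log2 fold changes of 0.16 and 0.12, the latter -0.07 under quantile normalization. Slc22a8, an organic anion transporter best known from kidney, had log2 fold changes of -0.08 and -0.19, which turned to 0.23 and 0.15 with the array spread as a covariate.

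Slc47a1, which exports organic cations in exchange for protons, was the 1 of these 13 genes with an unadjusted p under 0.05, which it had for NO-naproxen. Its intensities were 324, 297, 393 and 357 in the control rats, 277, 316, 283 and 325 with naproxen and 209, 173, 309 and 327 with NO-naproxen. NO-naproxen replicates 1 and 2 were below all other rats, and replicates 3 and 4 overlapped with the controls. The log2 fold change was -0.44 ± 0.20 (SE) with NO-naproxen (limma, adjusted p = 0.468) and -0.18 ± 0.20 with naproxen (adjusted p = 0.682). The NO-naproxen value was -0.15 with the array spread modelled and -0.29 without NO-naproxen replicate 2. The direct contrast of the drug diets gave -0.26 with a 95% interval of -0.68 to 0.15. The family median was -0.18 with naproxen and -0.13 with NO-naproxen. It was -0.06 in both under median centring, and -0.02 and 0.04 with the array spread as a covariate. The 4 measured kidney tubule markers, 2 of which were above background, had a mean log2 level of 6.59 to 7.32 in control, 6.33 to 6.82 in naproxen and 6.40 to 6.98 in NO-naproxen livers. All 4 had a log2 fold change below 0 with both drug diets, with medians of -0.45 for naproxen and -0.33 for NO-naproxen. Of the 19418 probe sets, 10514 were below 0 with naproxen and 9696 with NO-naproxen. Within the background range these counts were 5303 and 5039 of 7370 probe sets. For naproxen limma gave 1 of the 4 markers an unadjusted p under 0.05, beside 12.7% of all probe sets. The part of these markers in the values of Slc22a genes known from kidney was not tested.

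Canalicular exporters of drugs and phospholipid differed little in level between the diets. Abcb1a and Abcb1b encode the P-glycoproteins that export drugs, and Abcb4 moves phosphatidylcholine into bile. Abcb1a had intensities of 1001, 1044, 931 and 1176 in control, 1216, 1013, 1130 and 1169 in naproxen and 1305, 1320, 1098 and 1115 in NO-naproxen livers, and the groups overlapped. Its log2 fold change was 0.12 with naproxen (95% interval -0.20 to 0.45) and 0.22 with NO-naproxen (-0.11 to 0.54). Abcb1b gave 0.22 and 0.27, and its probes may share signal with those of Abcb1a, a related gene. For Abcb4 they were 0.10 and 0.22, and the former was -0.01 once the array spread was modelled and -0.05 when control replicates 3 and 4 were removed. The median of the 8 Abcb genes, which also include mitochondrial and lysosomal members, was 0.11 with naproxen and 0.22 with NO-naproxen. It was 0.05 in both under quantile normalization and 0.02 and 0.11 with the array spread modelled, and the naproxen median was -0.00069 after removal of control replicates 3 and 4.

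Exporters of conjugates in the Abcc family likewise had no member past the criterion among Abcc3, Abcc4, Abcc5 and Abcc6. Abcc3, which returns bile salt and glucuronide conjugates to blood, had intensities of 809, 976, 504 and 795 in control, 840, 654, 990 and 586 in naproxen and 468, 1245, 1141 and 639 in NO-naproxen livers. The NO-naproxen rats held both the highest and the lowest value, and the log2 fold changes were 0.00 and 0.11, or -0.10 and -0.08 under quantile normalization. Abcc4, a sinusoidal exporter of cyclic nucleotides and prostaglandins, was at 7.42 ± 0.21 on the log2 scale in control, 7.06 ± 0.30 in naproxen and 7.27 ± 0.30 in NO-naproxen livers (SD, n = 4). It differed from control by -0.35 with naproxen (limma, adjusted p = 0.441) and by -0.15 with NO-naproxen (adjusted p = 0.715). Abcc5, a nucleotide conjugate exporter, had 0.24 with naproxen (limma, adjusted p = 0.591) and 0.46 with NO-naproxen (adjusted p = 0.468), the latter with an unadjusted p under 0.05 and short of 1.5-fold. Abcc6, a liver exporter known for its role in preventing ectopic mineralisation, had 0.05 and 0.25.

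Abcc8 was the member of that family past the criterion, lower with naproxen. Its intensities were 181, 91.5, 210.2 and 230.1 in the control rats, 85.8, 94.96, 78.7 and 144 with naproxen and 111, 83.5, 190.1 and 130.2 with NO-naproxen. Control replicate 2 was below naproxen replicates 2 and 4, so the groups overlapped, while the other 3 control rats were above all naproxen rats. The log2 fold change was -0.70 ± 0.27 (SE), 1.62-fold lower (limma, adjusted p = 0.381). With NO-naproxen it was -0.41 ± 0.27 (limma, adjusted p = 0.507), and 0.14 with the array spread as a covariate. The median of the 7 Abcc genes was -0.35 with naproxen and -0.15 with NO-naproxen, and -0.17 and 0.14 with the array spread as a covariate.

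The Abca family includes lipid exporters. Abca1, the cholesterol and phospholipid exporter that forms nascent high density lipoprotein, had intensities of 1342, 1593, 1276 and 889 in control, 1538, 858, 1284 and 1282 in naproxen and 2058, 1906, 1032 and 1178 in NO-naproxen livers. NO-naproxen replicates 1 and 2 were the highest of the 12 rats, and the other 2 were within the control range. Against control it differed by -0.04 with naproxen (limma, adjusted p = 0.951) and by 0.24 with NO-naproxen (adjusted p = 0.645). It turned to 0.08 with median centring for naproxen and to -0.20 with the array spread as a covariate for NO-naproxen.

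Abca15, a rodent member of unknown role, was lower with naproxen, with intensities of 46.1, 53.6, 22.7 and 60.5 against 69.8, 39.5, 106 and 102 in the control rats. In NO-naproxen livers they were 72.3, 53.4, 101 and 70.2. Control replicate 2 lay below 3 of the 4 naproxen rats, so the groups overlapped. On the log2 scale the difference was -0.61 ± 0.27 with naproxen (limma, adjusted p = 0.388) and -0.04 ± 0.27 with NO-naproxen (adjusted p = 0.951). Its mean level was within the range of 970 probe sets of olfactory and vomeronasal receptors, whose 95th percentile of 6.44 on the log2 scale stood for background, so it was not above background here. The same held for 10 more of the 65 genes, namely Slco6b1, Slco6c1, Slco6d1, Slc22a13, Slc22a24, Slc22a25, Abca5, Abca12, Abcb5 and Abcf2. The median of the 11 Abca genes was -0.04 with naproxen, 0.08 under median centring, and 0.07 with NO-naproxen.

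Abcd2, which imports very long chain fatty acids into peroxisomes and is a textbook target of PPAR-alpha, was higher with both drug diets. Its intensities were 205, 158, 117 and 157 in the control rats, 302, 230.03, 187 and 364 with naproxen and 253, 242, 189 and 273 with NO-naproxen. Control replicate 1 was above the lowest rat of each drug group, and the other 3 control rats were below all 8 drug-fed rats. Fitted against control, Abcd2 was 0.69 ± 0.21 (SE) higher on the log2 scale with naproxen, 1.62-fold (limma, adjusted p = 0.381). With NO-naproxen it was 0.56 ± 0.21, or 1.47-fold, just under the fold of the criterion (limma, adjusted p = 0.468). The direct contrast was -0.14, with a 95% interval of -0.59 to 0.32.

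Abcd3, the related and more general peroxisomal fatty acid importer, did not share this pattern in level. It was at 11.61 ± 0.12 in control, 11.57 ± 0.14 in naproxen and 11.70 ± 0.27 in NO-naproxen livers (log2 scale, SD, n = 4). Its log2 fold changes were -0.04 and 0.10, the former 0.08 under median centring and the latter -0.12 with the array spread as a covariate. Abcd4, a lysosomal member involved in cobalamin handling, had -0.21 and -0.14. Abce1, Abcf2 and Abcf3, which have no membrane domain and act in translation, had log2 fold changes of 0.14 to 0.21 in the comparisons with control, and the family median was 0.17 with naproxen and 0.15 with NO-naproxen, the latter -0.01 under quantile normalization and the former 0.04 with the array spread modelled.

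Abcg5 and Abcg8 encode the partners of a heterodimer that secretes cholesterol and plant sterols into bile. The genes lie head to head and are transcribed away from each other, and the stretch between their annotated starts is shown because it is the sequence that the pair share. In RefSeq's annotation of GRCr8 it covers 205 bases, chr6:15717731-15717935 on the plus strand, and capitals mark the matches to AGATAA, a hexamer recognised by GATA factors.
Abcg5 and Abcg8 intergenic region: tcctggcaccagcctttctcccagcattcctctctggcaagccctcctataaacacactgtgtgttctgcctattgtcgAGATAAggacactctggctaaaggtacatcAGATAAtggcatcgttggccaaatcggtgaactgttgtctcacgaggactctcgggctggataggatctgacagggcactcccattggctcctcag
Searched on both strands, it held 2 matches to AGATAA and 0 to AGGTCA, a nuclear receptor hexamer, or to CACGTG, an E-box. Among 33469 RefSeq promoter windows of 205 bases, 8.35% held at least 1 AGATAA and 0.604% at least 2. In the 250 bases before each start, AGATAA was present in 5 of the 57 transporter genes with a promoter entry, 8.77%, and in 10.3% of all promoters. Those 5 include both Abcg5 and Abcg8, whose windows each hold the same 205 bases. AGGTCA was present in 8 of 57, beside 14.1% of all, and CACGTG in 4 of 57, beside 5.59%. These matches describe the letters of the reference, and binding was not measured.

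The largest log2 fold change among the 65 genes was that of Abcg5 with naproxen. Its intensities were 149, 382, 126 and 207 in the control rats, 718, 294, 561 and 386 with naproxen and 167, 387, 665 and 177 with NO-naproxen. Of the naproxen rats, 3 were above all control rats, and naproxen replicate 2 was below control replicate 2. NO-naproxen rats split into replicates 2 and 3, which were above every control rat, and replicates 1 and 4, which were within the control range. The log2 fold change was 1.17 ± 0.41 (SE), or 2.24-fold, with naproxen (limma, adjusted p = 0.381) and 0.55 ± 0.41 with NO-naproxen (adjusted p = 0.532). The difference between the drug diets was -0.61 with a 95% interval of -1.48 to 0.25 (limma, adjusted p = 1).

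Abcg8 showed a similar order of rats and a wider range. It had intensities of 128, 345, 51.2 and 156 in control, 560, 146, 473 and 183 in naproxen and 37.2, 262, 586 and 63.5 in NO-naproxen livers. NO-naproxen replicates 1 and 3 were the lowest and the highest of the 12 rats, and all groups overlapped. Its difference from control was 0.98 ± 0.66 on the log2 scale with naproxen (limma, adjusted p = 0.507) and 0.06 ± 0.66 with NO-naproxen (adjusted p = 0.969). The naproxen value was 0.43 after removal of control replicates 3 and 4, and 0.57 without control replicate 3 alone. The NO-naproxen value was -0.27 with the array spread as a covariate, -0.37 with array weights, and -0.57 to 0.60 on leaving out single rats.

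The spread between rats on 1 diet set this pair apart from most transporter genes. The pooled within-group SD was 1.22 for Abcg8 and 0.72 for Abcg5 on the log2 scale, beside a median of 0.29 over the 65 genes and 0.30 over all probe sets. That of Abcg8 was at percentile 99.7 of 3825 probe sets of like level and that of Abcg5 at percentile 99.3 of 2868. For Slco1a4 it was 0.43, at percentile 96.8 of 343. Other genes had a like rank, such as Abcc3 with 0.49, at percentile 97.2 of 1342. Slco1b2 had 0.26, at percentile 97.1 of 138, and Slco1a6 had 0.52, at percentile 96.2 of 3907.

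**Figure D2:**
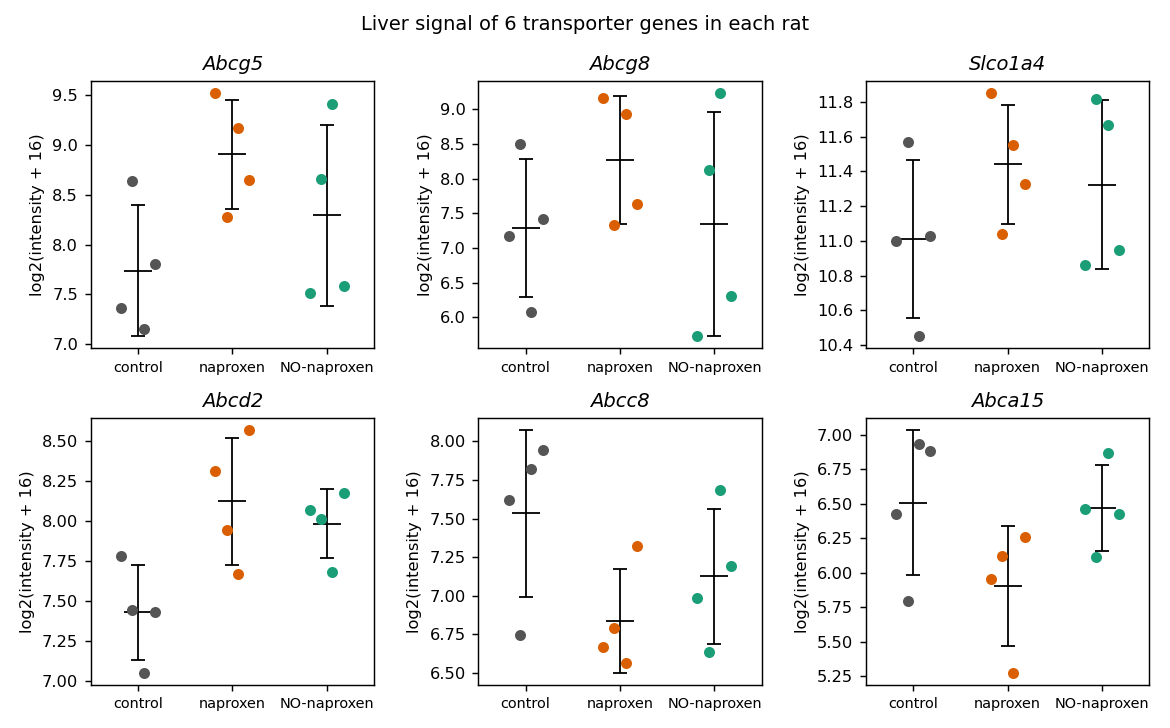
Log2(intensity + 16) of 6 transporter genes in each of the 12 rats by diet; points are rats, horizontal lines the mean and bars the SD of 4 rats. Abcg5, Abcg8 and Slco1a4 spread widely within each diet, 3 of 4 control rats lie below all drug-fed rats for Abcd2, and control replicate 2 is the lowest control for Abcc8 and Abca15.

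Across the 12 rats the signals of Abcg5 and Abcg8 moved together. Pearson's r was 0.928 (permutation p = 6e-05, adjusted p = 0.00048 over 12 relations) and Spearman's rho was 0.93 (permutation p = 4e-05, adjusted p = 0.00048). Without the 2 rats farthest from the median r was 0.927, and after each diet's mean was removed it was 0.975. With the array spread removed as well it was 0.974. The rats of highest signal for both genes came from different diets, NO-naproxen replicate 3 and naproxen replicates 1 and 3.

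Of the 6 other pairs of transporter genes that are direct neighbours in the annotation, Slco1b2 and Slco1a4 had the highest correlation. Their r was 0.696 (permutation p = 0.011, adjusted p = 0.04) and rho was 0.552 (permutation p = 0.0681, adjusted p = 0.199), but r was 0.365 without the 2 farthest rats, so the relation rested on those. Slc22a8 and Slc22a6, Abca8 and Abca8a, Abca6 and Abca5, Slco1a3 and Slco1a6, and Slco6c1 and Slco6d1 had r of 0.162 to 0.499, with adjusted permutation p of 0.197 or above.

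Among the 19417 other probe sets, Abcg8 ranked 1 and Slco1a4 ranked 3 by correlation with Abcg5, and Abcc3 ranked 148. The r of Slco1a4 with Abcg5 was 0.909 over 12 rats, 0.916 after removal of diet means and 0.946 with the array spread also removed. The r of Abcc3 was 0.66, and 0.837 after removal of diet means. These values are descriptions, and Slco1a4 and Abcc3 were singled out after their values were seen. The 12 arrays share platform and processing, and the relation was not tested in other rats.

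**Figure D3:**
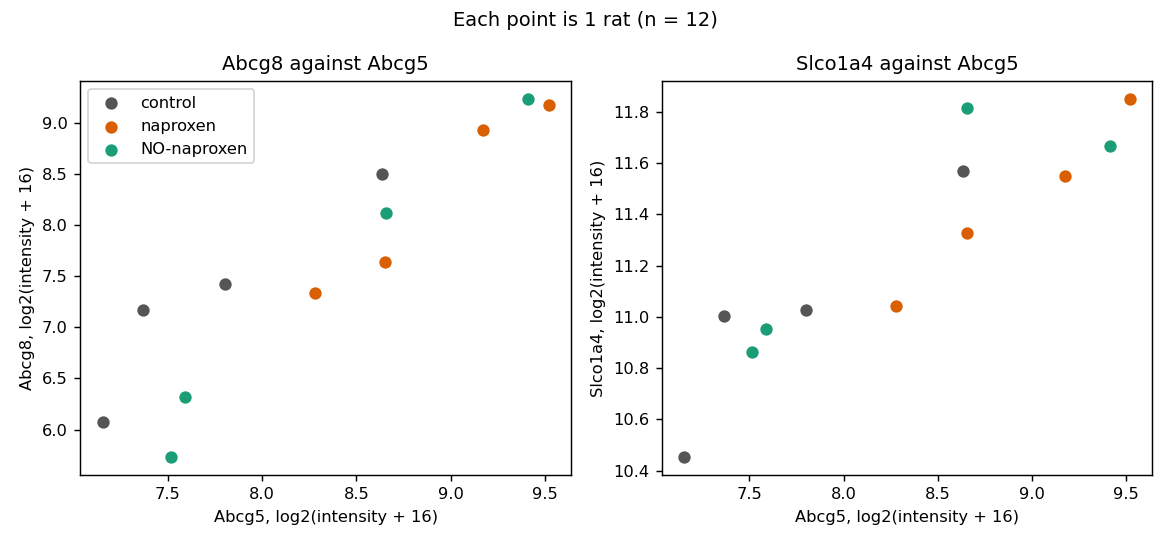
Log2(intensity + 16) of Abcg8 (left) and Slco1a4 (right) against that of Abcg5, 1 point per rat, coloured by diet. Both increase with Abcg5 over the 12 rats, with r of 0.928 and 0.909, and the rats of the 3 diets lie along 1 trend in each plot.

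With naproxen, the other 4 members of the Abcg family were nearer to control than Abcg5 and Abcg8. Abcg2, the canalicular exporter of drugs, urate and sulfated conjugates, was at 7.84 ± 0.49 in control, 7.91 ± 0.25 in naproxen and 7.99 ± 0.25 in NO-naproxen livers (log2 scale, SD, n = 4). Its log2 fold changes were 0.07 and 0.14. Abcg4, a sterol exporter best known from brain, had -0.54 with naproxen (limma, adjusted p = 0.384) and -0.52 with NO-naproxen (adjusted p = 0.468), both with an unadjusted p under 0.05 and neither at 1.5-fold. Abcg1, which exports cholesterol to high density lipoprotein, had 0.03 and 0.12. The median of the 6 Abcg genes was 0.05 with naproxen and 0.09 with NO-naproxen, and under median centring 0.16 with both.

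The array spread moved with some of the genes past the criterion. Over the 12 arrays its correlation with Abcc8 was r = -0.907 (permutation p = 8e-05, adjusted p = 0.00048; rho = -0.909) and with Abca15 r = -0.686 (permutation p = 0.0133, adjusted p = 0.04; rho = -0.713). After removal of diet means these were -0.922 and -0.789. For Abcd2 the r was 0.507, for Abcg5 0.429 and for Abcg8 0.261, each with an adjusted permutation p of 0.197 or above. With the spread as a covariate in limma, the log2 fold change with naproxen was -0.19 for both Abcc8 (adjusted p = 0.902) and Abca15 (adjusted p = 0.929). It was 0.63 for Abcd2 (limma, adjusted p = 0.849) and 0.97 for Abcg5 (adjusted p = 0.873), both with an unadjusted p under 0.05, so 2 of the 65 genes were past the criterion, both higher, beside 1.71% of all probe sets. Without the 2 arrays of narrowest spread, control replicates 3 and 4, 0 of 65 were past it, beside 1.50% of all probe sets. The log2 fold change with naproxen was then 0.91 for Abcg5, 0.51 for Abcd2, -0.35 for Abcc8 and -0.21 for Abca15, and limma gave none of these 4 an unadjusted p under 0.05. What sets the array spread was not tested.

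**Figure D4:**
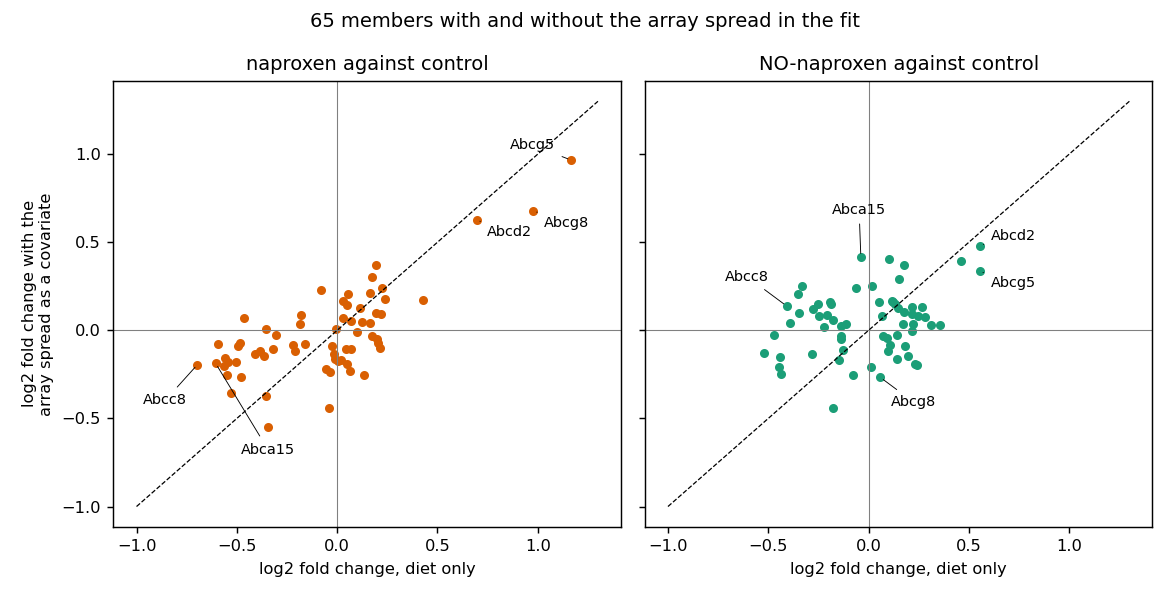
Log2 fold change against control of the 65 genes with the array spread as a covariate (vertical) against that with diet only (horizontal), on the log2(intensity + 16) scale; the dashed line marks equal values. With naproxen, Abcg5, Abcg8 and Abcd2 keep most of their difference, and Abcc8 and Abca15 move from -0.70 and -0.61 to -0.19.

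Genes listed as regulators of transporter genes were measured for 15 of 16. With naproxen 2 of the 15 were past the criterion, both higher, and with NO-naproxen 3, all higher. Of all probe sets 5.85% and 3.80% were past it in either direction, and 0.875% and 1.78% in the higher direction. The values of these regulators under the alternatives are not given here. Nr1i3, the constitutive androstane receptor that senses drugs, had log2 fold changes of 0.86 ± 0.27 (SE) with naproxen (limma, adjusted p = 0.381) and 0.67 ± 0.27 with NO-naproxen (limma, adjusted p = 0.468). Ahr, the aryl hydrocarbon receptor, had 0.61 with naproxen (limma, adjusted p = 0.381) and 0.63 with NO-naproxen (adjusted p = 0.468). Ppara, the receptor of fatty acids, had 0.44 with naproxen (limma, adjusted p = 0.442) and 0.67 with NO-naproxen (adjusted p = 0.468). With naproxen 1 of the 15, Nr1i3, lay above control without overlap and 1, Hnf4a, below it, beside 2.09% and 2.40% of all probe sets. Hnf4a had -0.33 with naproxen (limma, adjusted p = 0.415) and -0.05 with NO-naproxen. Nr1h3, the oxysterol receptor LXR-alpha, and Nr5a2, known as LRH-1, had -0.02 and 0.24 with naproxen and 0.32 each with NO-naproxen, none of them past the criterion. Of 10 other liver carriers, among them the bile salt uptake carrier Slc10a1, 0 were past the criterion and limma gave 0 an unadjusted p under 0.05 with either drug diet. Of 4 proteins that anchor transporters in the membrane, 0 were past the criterion, and limma gave an unadjusted p under 0.05 to 1. This was Rdx, which encodes radixin of the canalicular membrane, with 0.47 for NO-naproxen (limma, adjusted p = 0.468). In limma 12.7% of all probe sets had an unadjusted p under 0.05 with naproxen and 10.4% with NO-naproxen.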

How the data were processed

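Liver RNA of 12 rats was measured, 1 Affymetrix array each. For each array 19418 probe set intensities were deposited, linear and, per the submitters' processing notes, from Affymetrix Expression Console 1.1.1 with genome build rn4. Their summary and normalization, not given in the sources used here, remain unknown. The columns do not share 1 distribution, and array precision is limited by the 4 rats per diet. A constant of 16 was added before log2, which understates the folds of dim probe sets.

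Groups came from the labels. All probe sets of all 12 arrays entered 1 fit in limma 3.58.1 (lmFit and eBayes, R 4.3.3, 2-sided), with diet as the factor, and p-values were adjusted by Benjamini-Hochberg over all probe sets. The criterion, an unadjusted p under 0.05 and at least 1.5-fold, is that of the series' design text. Genes named were those past it and 24 listed liver transporters; others were named from family ranges, low p or likeness after their values were seen. The members, lists and tests were chosen with earlier results of these data known. Correlations used 100000 resamples in scipy 1.17.1 under Python 3.11.15, and plots were drawn with matplotlib 3.10.9.

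Tested on simulated data for naproxen against control with 19418 probe sets, the criterion called 91% of probe sets changed by 1 log2 unit and 1.76% of unchanged ones. Alternatives were other constants (1 and 64), quantile normalization, median centring, removal of the dimmest 30%, the array spread as a covariate, only the groups compared, a trended and robust spread, array weights, a replicate block, averaging of probe sets per gene, 2-fold, removal of the 2 arrays of narrowest spread, and each array left out.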

Additional observations from a re-analysis of the deposited data

Results flagged for a closer look

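In the control group, replicate 3 stood apart for Abcc4, the sinusoidal exporter of cyclic nucleotides and prostaglandins. Its level of 7.73 on the log2(intensity + 16) scale was the highest, with the other 3 control rats at 7.27 to 7.35, so that the gap made up 0.841 of the group's range, above Dixon's 95% critical value for 4 samples. Of 63 groups of 4 examined this was the 1 that passed, and chance passes about 1 in 20.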

How the results depend on the processing

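The number of the 65 genes past the criterion for naproxen against control was 4, beside 5.85% of all probe sets, and became 7 (7.83%) with a constant of 1, 1 (0.984%) with 64, 2 (4.87%) under median centring, 2 (1.71%) with the array spread as a covariate, 8 (7.72%) with array weights, 1 (0.453%) at 2-fold and 0 (1.50%) without the 2 arrays of narrowest spread; leaving out single rats gave 1 to 15. For NO-naproxen against control it was 0 (3.80%) and became 1 with a constant of 1 (5.32%), under quantile normalization (3.42%) and under median centring (4.62%), and 4 (13.0%) with array weights, with 0 to 7 on leaving out single rats. For the direct contrast it was 0 (0.572%) and became 1 (0.747%) with the array spread as a covariate and 2 (1.57%) with array weights, with 0 to 2 on leaving out single rats. The replicate block gave 4, 0 and 0, and since same-numbered arrays did not deviate together (correlations from -0.382 to 0.481, with 3 of 12 arrays closest to a same-numbered one) it is not read as a measure of strength. The split of all probe sets past the criterion for NO-naproxen was 346 higher and 392 lower, and 632 and 266 under median centring; for naproxen it was 371 and 603 under quantile normalization.

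Of 1128 alternative values of 47 log2 fold changes, 68 changed sign, 0 of them for genes past the criterion in that comparison. The criterion was gained by 17 values and lost by 24, all of the latter from the 4 genes past it with naproxen. Each of these had 12 other settings and 12 left-out rats. Abca15 lost the criterion in 11 of them, Abcc8 in 8, Abcd2 in 4 and Abcg5 in 1. With naproxen, quantile normalization turned Abcc3 to -0.096, Abcc6 to -0.028 and Slco2a1 to 0.036. Median centring turned Abca1 to 0.077, Abcd3 to 0.078, Slc22a8 to 0.037, Slco2a1 to 0.10 and Slco2b1 to 0.10. The spread covariate turned Abcb4 to -0.011, Abcc3 to -0.17, Abcc6 to -0.11, Slc22a8 to 0.23, Slc47a1 to 0.088 and Slco1b2 to -0.052. Array weights turned Abcc3 to -0.044. Removing the narrowest arrays turned Abcb4 to -0.052, Abcc3 to -0.24 and Slc22a8 to 0.089.

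With NO-naproxen, quantile normalization turned Abca15 to 0.072, Abcc3 to -0.084 and Slc22a7 to -0.067, and median centring Abca15 to 0.031. The spread covariate turned Abca1 to -0.20, Abca15 to 0.42, Abcc3 to -0.084, Abcc8 to 0.14, Abcd3 to -0.12, Abcg8 to -0.27, Slc22a8 to 0.15, Slco1b2 to -0.090, Slco2a1 to -0.042 and Slco2b1 to -0.027. Array weights turned Abcc3 to -0.12 and Abcg8 to -0.37. Removing the narrowest arrays turned Abca15 to 0.36, Abcc3 to -0.13, Abcg8 to -0.48 and Slco1b2 to -0.016.

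Leaving out single rats also changed signs. With naproxen the ranges were -0.20 to 0.13 for Abca1, -0.18 to 0.13 for Abcc3, -0.026 to 0.12 for Abcc6, -0.089 to 0.021 for Abcd3, -0.098 to 0.29 for Abcg2, -0.24 to 0.061 for Slc22a8, -0.093 to 0.058 for Slco2a1 and -0.064 to 0.066 for Slco2b1. With NO-naproxen they were -0.28 to 0.10 for Abca15, -0.099 to 0.36 for Abcc3, -0.022 to 0.37 for Abcg2 and -0.57 to 0.60 for Abcg8, and in the direct contrast -0.29 to 0.0098 for Abcd2. The cause of these changes was not tested. The 4 genes past the naproxen criterion kept their sign in all alternatives run. They were chosen in these same data for a change of at least 1.5-fold, so a kept sign was likely from the start. It is not read as a measure of strength. Their values ran from 0.91 to 1.47 for Abcg5, 0.51 to 0.85 for Abcd2, -0.96 to -0.19 for Abcc8 and -0.84 to -0.19 for Abca15. Dim probe sets limit the rest, since 11 of the 65 genes were within the background range.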
